A study of Arabidopsis thaliana with 12 samples.

Results

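The genes described here make N-hydroxypipecolic acid or modify salicylic acid in leaves of *Arabidopsis thaliana*. They were chosen by function, as a list of gene codes, and number 9 of the 28496 genes in the table. *ALD1*, *SARD4* and *FMO1* encode the synthesis enzymes. *UGT76B1*, *UGT74F1* and *UGT74F2* encode glucosyltransferases, *DLO1* and *DMR6* encode hydroxylases, and *BSMT1* encodes a methyltransferase. RNA was sequenced from 12 leaf samples, 3 for each of 4 genotypes in the Col-0 background, and those of a genotype were taken in separate experiments. A sample held 2 leaves drawn from different plants, and the sources used here do not give leaf age. The control was wild-type Col-0. The line labelled ADR1-L2 D484V, called *ADR1-L2 DV* below, carries an activation mimic of the helper immune receptor ADR1-L2, expressed from the native *ADR1-L2* promoter in the *adr1-l2-4* mutant. The lines labelled ADR1-L2 D484V 26.6 and ADR1-L2 D484V 30.4, called *sadr1-26.6* and *sadr1-30.4* below, carry the same transgene and mutation, and in addition an allele of *SADR1*, a TIR-NLR receptor gene, found in a screen for suppressors of stunted growth. Each suppressor is 1 line from that screen, so an effect of the *sadr1* allele and of any other mutation in the line cannot be told apart.

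Salicylic acid and N-hydroxypipecolic acid are small molecules that accumulate in leaves under attack and act together in local and systemic resistance. ALD1, an aminotransferase, starts the second route from lysine. The reductase SARD4 then forms pipecolic acid, and the monooxygenase FMO1 adds the hydroxyl group that gives N-hydroxypipecolic acid. UGT76B1 attaches glucose to N-hydroxypipecolic acid, to salicylic acid and to isoleucic acid. UGT74F1 and UGT74F2 attach glucose to salicylic acid. DLO1, also called S3H, and DMR6, also called S5H, hydroxylate salicylic acid to dihydroxybenzoic acids, and loss of DMR6 makes plants resistant to downy mildew. BSMT1 forms the volatile methyl salicylate.

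The deposited table gives 1 whole number per gene and genotype, with totals of 20148132 in wild type, 21277026 in the *ADR1-L2 DV* line, 20013826 in *sadr1-26.6* and 20613029 in *sadr1-30.4*. The columns are headed RPKM, but the values were whole, were not scaled to a common total and rose with exon length (Spearman's rho 0.22 across 17980 genes, which are not independent), so they were treated as reads pooled over the samples of a genotype. How the 3 samples were combined is not stated in the study's methods or labels. No spread between samples can therefore be stated, no test of a gene was possible, and no SD or n stands beside a value. Levels below are scaled reads, meaning reads divided by a factor per genotype that sets the median ratio between genotypes to 1. Ratios are log2 ratios of scaled reads after adding a pseudocount of 1. The range beside a ratio is its exact Clopper-Pearson 95% interval, which covers counting error only and would be wrong in width if the values are not sums of reads. A gene was called past 2-fold where the log2 ratio was at least 1 in size and the mean over the 4 genotypes was at least 10 reads, which 18048 genes reached. In *ADR1-L2 DV* over Col-0, 1332 genes were past 2-fold higher and 1367 past 2-fold lower. Scaling by total reads raised the *ADR1-L2 DV* over Col-0 ratios of all genes by 0.21 on the log2 scale and changed this split to 1826 higher and 961 lower. Under the same change the share of higher genes among those past 2-fold went from 47.7% to 28.3% in *sadr1-26.6* over *ADR1-L2 DV* and from 48.1% to 30.2% in *sadr1-30.4* over *ADR1-L2 DV*. *ADR1-L2* itself, which counts reads of the transgene and the endogenous locus together, stood at 1197 scaled reads in wild type, 7288 in the *ADR1-L2 DV* line, 3526 in *sadr1-26.6* and 1924 in *sadr1-30.4*. *SADR1* stood at 399.5, 596, 480 and 352 scaled reads in the same order.

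Among 19 markers of leaf and other cell types, the summed scaled reads of the mesophyll markers were 601430 in wild type, 377345 in the *ADR1-L2 DV* line, 614216 in *sadr1-26.6* and 653217 in *sadr1-30.4*. Those of the phloem markers were 6808, 3987, 6428 and 5873 in the same order, and those of the xylem markers 236, 127, 165 and 187. The 3 mesophyll markers differed in *ADR1-L2 DV* over Col-0, with log2 ratios of -0.20 for *LHCB1.1*, -0.77 for *RBCS1A* and -1.45 for *CA1*. Both root markers and the trichome marker *GL1* had 0 reads in every genotype. The other trichome marker, *GL2*, had 36 reads in wild type, 95 in the *ADR1-L2 DV* line, 67 in *sadr1-26.6* and 34 in *sadr1-30.4*. In *ADR1-L2 DV* over Col-0, 2 of the 15 markers above the read minimum were past 2-fold higher and 3 were past 2-fold lower, against 0 and 1 in *sadr1-26.6* over Col-0 and none in *sadr1-30.4* over Col-0. The 2 higher in *ADR1-L2 DV* were *GL2*, at a log2 ratio of 1.09 (0.54 to 1.71), and the epidermal marker *PDF1*. *PDF1* had 16 reads in wild type and 384 in the *ADR1-L2 DV* line, while the other epidermal marker, *ATML1*, stood at 1305 and 1448. The 3 lower were *CA1*, the phloem marker *SEOR1* at a log2 ratio of -1.68 (-1.88 to -1.49) and the flower marker *AG*. *AG* had 17 reads in wild type, 1 in the *ADR1-L2 DV* line, 30 in *sadr1-26.6* and 17 in *sadr1-30.4*. The part of these marker differences in the results below was not tested. In whole leaves, fewer cells of a type and less RNA per cell cannot be told apart.

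The bases before the annotated start of 4 members are printed because these genes carry the largest differences among the members, and because short motifs of defense regulators could be looked for in them. Each line gives the 300 bases upstream of the RefSeq gene start in assembly TAIR10.1, 5′ to 3′ on the gene's own strand, from chr1:6653196-6653495 (minus strand) for *FMO1*, chr2:5768117-5768416 (plus strand) for *ALD1*, chr3:3556254-3556553 (plus strand) for *UGT76B1* and chr4:6490717-6491016 (plus strand) for *DLO1*. Capitals mark GAAATTT, the letters given for binding by SARD1 and CBP60g, and TGACG, those for TGA factors, on either strand.
FMO1: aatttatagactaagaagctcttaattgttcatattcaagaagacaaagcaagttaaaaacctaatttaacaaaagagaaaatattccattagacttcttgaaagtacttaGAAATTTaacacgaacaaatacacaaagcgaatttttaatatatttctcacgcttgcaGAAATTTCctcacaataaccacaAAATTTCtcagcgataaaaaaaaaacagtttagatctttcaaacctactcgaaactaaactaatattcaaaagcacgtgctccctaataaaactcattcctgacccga
ALD1: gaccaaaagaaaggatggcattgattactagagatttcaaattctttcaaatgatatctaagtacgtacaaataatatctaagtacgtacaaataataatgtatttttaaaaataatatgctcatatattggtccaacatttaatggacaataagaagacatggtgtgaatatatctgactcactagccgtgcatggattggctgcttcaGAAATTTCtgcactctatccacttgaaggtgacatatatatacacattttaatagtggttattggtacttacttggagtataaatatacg
UGT76B1: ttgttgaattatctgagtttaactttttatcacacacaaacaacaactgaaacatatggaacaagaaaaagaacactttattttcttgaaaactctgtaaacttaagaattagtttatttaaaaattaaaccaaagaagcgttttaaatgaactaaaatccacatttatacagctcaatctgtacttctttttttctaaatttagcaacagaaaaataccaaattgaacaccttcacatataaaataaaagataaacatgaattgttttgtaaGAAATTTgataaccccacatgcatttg
DLO1: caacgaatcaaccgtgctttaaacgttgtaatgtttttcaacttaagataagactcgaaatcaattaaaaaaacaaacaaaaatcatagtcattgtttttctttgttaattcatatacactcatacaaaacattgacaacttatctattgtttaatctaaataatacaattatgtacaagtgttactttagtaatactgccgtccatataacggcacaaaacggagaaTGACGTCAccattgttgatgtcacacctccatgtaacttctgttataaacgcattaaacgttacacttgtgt

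GAAATTT was present in 3 of the 9 upstream windows, those of *FMO1*, *ALD1* and *UGT76B1*, and in 14.9% of 27443 windows of the same length before protein-coding genes. In *ALD1* the match lies 90 to 84 bases before the start, and in *UGT76B1* 27 to 21 bases before it. The same stretch matches on both strands in *ALD1* and once in *FMO1*, since its letters overlap their own reverse complement. TGACG was found in 1 member, *DLO1*, where 2 matches on opposite strands overlap, and in 21.3% of all windows. The W-box of WRKY factors, searched as TTGACC or TTGACT on either strand, was found in 2 members, *SARD4* and *BSMT1*, and in 32.3% of all windows. The *SARD4* window lies within the neighbouring gene AT5G52800. None of these letters stood in the windows of *DMR6*, *UGT74F1* and *UGT74F2*. A match is a description of the letters, not a binding site.

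**Figure D1:**
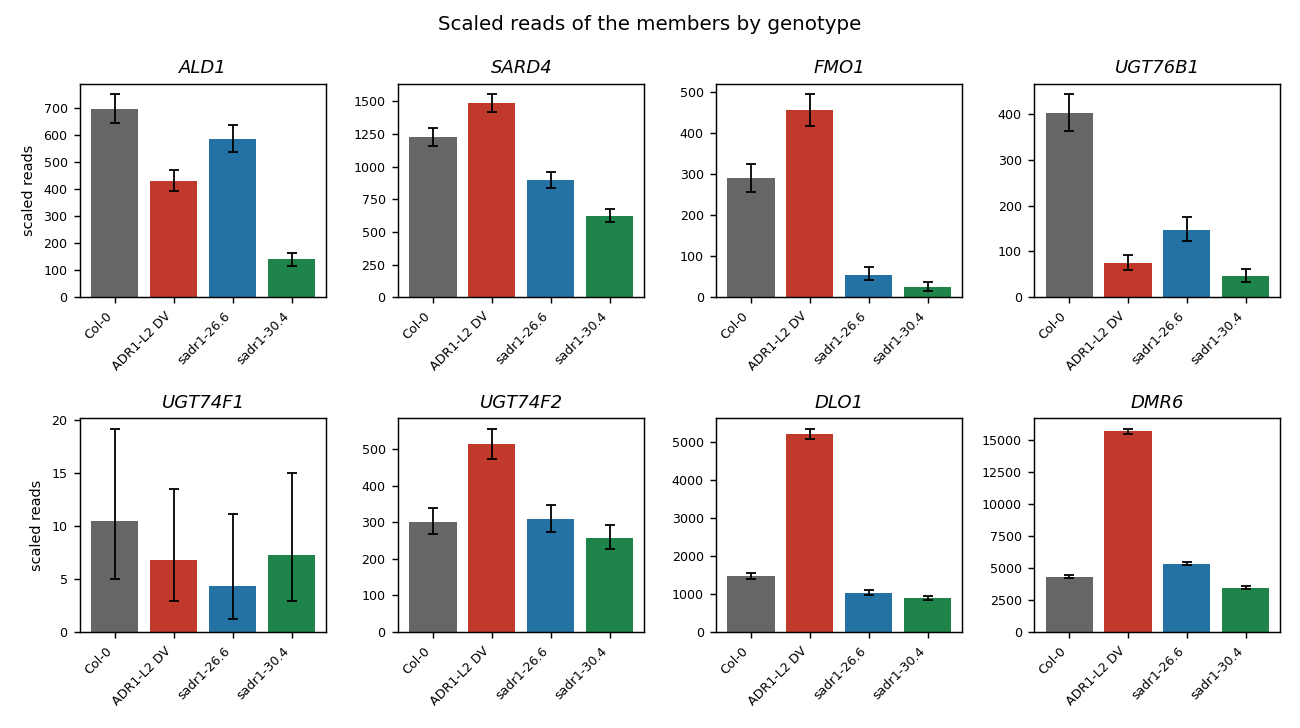
Scaled reads (vertical axis, linear, a separate scale per gene) in the 4 genotypes for 8 of the 9 members. Bars are 1 pooled value per genotype and error bars are exact Poisson 95% intervals of the reads, which cover counting error only. *DLO1* and *DMR6* stand highest in *ADR1-L2 DV*, at 5222 and 15632, while *UGT76B1* and *ALD1* stand highest in Col-0, at 402 and 699.

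The genes of N-hydroxypipecolate synthesis differed among themselves in the order of the genotypes. *FMO1* (AT1G19250, chromosome 1, 6650476 to 6653195) stood at 289 scaled reads in wild type, 455 in the *ADR1-L2 DV* line, 55.3 in *sadr1-26.6* and 24.9 in *sadr1-30.4*. It was thus 1.57-fold higher in *ADR1-L2 DV* than in Col-0 (log2 ratio 0.65, 0.44 to 0.87), short of the 2-fold mark. Both suppressors lay far below wild type. The log2 ratio to Col-0 was -2.37 (-2.85 to -1.95) in *sadr1-26.6* and -3.49 (-4.20 to -2.93) in *sadr1-30.4*, from 277 reads in Col-0, 51 in *sadr1-26.6* and 24 in *sadr1-30.4*.

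*ALD1* (AT2G13810, chromosome 2, 5768417 to 5772266), which acts first in the route, was highest in Col-0. It stood at 699 scaled reads in wild type, 431 in the *ADR1-L2 DV* line, 586 in *sadr1-26.6* and 140 in *sadr1-30.4*. The *ADR1-L2 DV* line was below wild type, with a log2 ratio of -0.70 (-0.87 to -0.53), and *sadr1-26.6* was near it at -0.25 (-0.42 to -0.09). When total reads set the scale, the ratio in *ADR1-L2 DV* was -0.49, outside that interval. Only *sadr1-30.4* passed the 2-fold mark for this gene, at -2.31 (-2.60 to -2.05), a level 4.96-fold lower than in Col-0.

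*SARD4* (AT5G52810, chromosome 5, 21399331 to 21400686) spanned a narrower range, with 1225 scaled reads in wild type, 1487 in the *ADR1-L2 DV* line, 896 in *sadr1-26.6* and 623 in *sadr1-30.4*. Its order of genotypes was that of *FMO1*, with *ADR1-L2 DV* highest and *sadr1-30.4* lowest. The log2 ratio to Col-0 was 0.28 (0.17 to 0.39) in the *ADR1-L2 DV* line, -0.45 (-0.58 to -0.32) in *sadr1-26.6* and -0.97 (-1.12 to -0.83) in *sadr1-30.4*. None of these reached 2-fold, and the interval of the last includes it. The 89 bases shared with the upstream neighbour AT5G52800 on the same strand cannot be assigned to either gene, and that neighbour had 43 reads in Col-0.

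Among the glucosyltransferase genes, *UGT76B1* was lower in *ADR1-L2 DV* than in wild type, as *ALD1* was, and by more. *UGT76B1* (AT3G11340, chromosome 3, 3556554 to 3558361) stood at 402 scaled reads in wild type, 74.2 in the *ADR1-L2 DV* line, 147 in *sadr1-26.6* and 45.6 in *sadr1-30.4*. Wild type was the highest and all 3 transgenic lines lay below it past 2-fold. The log2 ratio to Col-0 was -2.42 (-2.79 to -2.10) in the *ADR1-L2 DV* line, -1.44 (-1.74 to -1.16) in *sadr1-26.6* and -3.11 (-3.62 to -2.68) in *sadr1-30.4*. The level in *sadr1-26.6* was above that in *ADR1-L2 DV* (log2 ratio 0.98, 0.59 to 1.40), and that in *sadr1-30.4* below it (-0.69, -1.26 to -0.16). It was the sole member for which *ADR1-L2 DV* and a suppressor both lay past 2-fold from Col-0 in the same direction.

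*UGT74F2* (AT2G43820, chromosome 2, 18152078 to 18153908) was highest in *ADR1-L2 DV* and close to wild type in the suppressors. It stood at 301 scaled reads in wild type, 514 in the *ADR1-L2 DV* line, 309 in *sadr1-26.6* and 258 in *sadr1-30.4*. The log2 ratio to Col-0 was 0.77 (0.57 to 0.98) in *ADR1-L2 DV*. The intervals of both suppressors included 0, at 0.03 (-0.21 to 0.28) in *sadr1-26.6* and -0.22 (-0.47 to 0.03) in *sadr1-30.4*, and the former turned negative when total reads set the scale. *UGT74F1* (AT2G43840, chromosome 2, 18157529 to 18159231), its close copy, had 10 reads in wild type, 8 in the *ADR1-L2 DV* line, 4 in *sadr1-26.6* and 7 in *sadr1-30.4*, below the read minimum, and no difference was detectable at this depth. The coding sequences of the pair are 84.1% identical, with a longest shared run of 48 bases, so how shared reads were counted bears on both values. Each also overlaps a gene on the opposite strand, and whether reads were counted by strand is not stated.

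The hydroxylase genes held the most reads and were the members that stood farthest above wild type in *ADR1-L2 DV*. *DMR6* (AT5G24530, chromosome 5, 8378759 to 8383401) stood at 4316 scaled reads in wild type, 15632 in the *ADR1-L2 DV* line, 5335 in *sadr1-26.6* and 3431 in *sadr1-30.4*. It was 3.62-fold higher in *ADR1-L2 DV* than in Col-0, a log2 ratio of 1.86 (1.81 to 1.91). The suppressors lay on either side of wild type, at 0.31 (0.25 to 0.37) in *sadr1-26.6* and -0.33 (-0.40 to -0.26) in *sadr1-30.4*. *DLO1* (AT4G10500, chromosome 4, 6491017 to 6492578) stood at 1462 scaled reads in wild type, 5222 in the *ADR1-L2 DV* line, 1037 in *sadr1-26.6* and 895 in *sadr1-30.4*. Its gap between *ADR1-L2 DV* and Col-0 was close in size to that of *DMR6*, with a 3.57-fold higher level and a log2 ratio of 1.84 (1.75 to 1.92). In both suppressors *DLO1* was below wild type, at -0.50 (-0.62 to -0.38) and -0.71 (-0.83 to -0.58). *DLO2*, the adjacent copy of *DLO1* with 79.5% identity over the coding sequence, had 0 reads in every genotype.

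*BSMT1* (AT3G11480, chromosome 3, 3614421 to 3617342) was hardly detected. It had 0 reads in wild type, 1 in the *ADR1-L2 DV* line, 0 in *sadr1-26.6* and 2 in *sadr1-30.4*. All 4 values are at or below 3 reads, the limit that a count of 0 allows, so no fold is given and no difference was detectable at this depth. It shares 79 bases with AT3G11490 on the opposite strand.

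**Figure D2:**
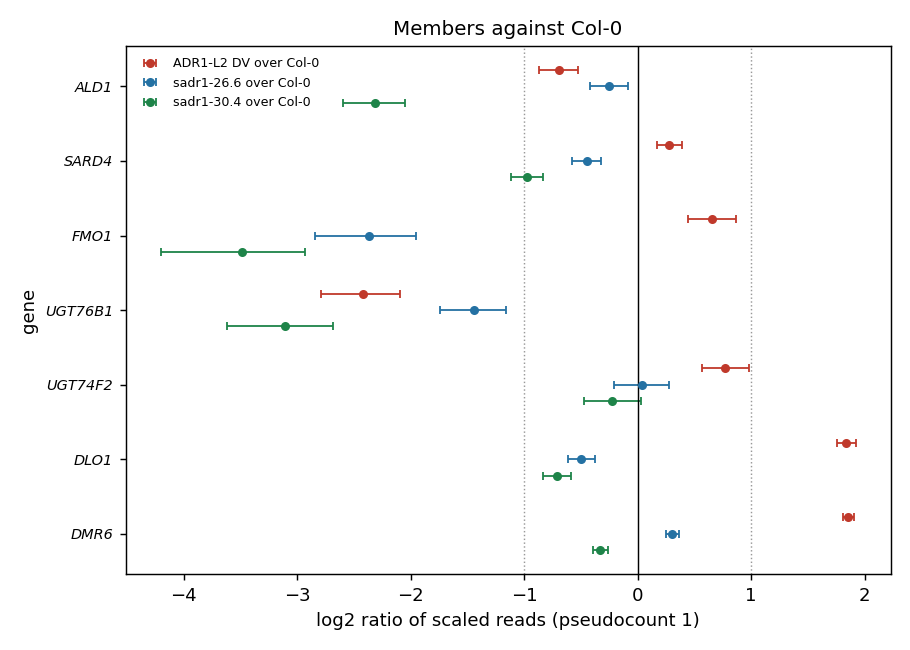
Log2 ratios of scaled reads to Col-0 (horizontal axis) for the 7 members above the read minimum, with *ADR1-L2 DV* in red, *sadr1-26.6* in blue and *sadr1-30.4* in green. Bars are 95% counting intervals and dotted lines mark 2-fold; *DLO1* and *DMR6* lie past it to the right in *ADR1-L2 DV*, and *UGT76B1* lies past it to the left in all 3 lines.

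Of the 9 members, 7 passed the read minimum, each with at least 24 reads in every genotype. In *ADR1-L2 DV* over Col-0, 2 of these 7 were past 2-fold higher (*DMR6* and *DLO1*) and 1 past 2-fold lower (*UGT76B1*). Over all genes above the minimum, 7.38% were past 2-fold higher and 7.57% lower, 15.0% together. The median log2 ratio of the 7 members was 0.65, against 0.01 over all genes. In *sadr1-26.6* over Col-0, 0 were past 2-fold higher and 2 lower (*FMO1* and *UGT76B1*), where 1.85% of all genes were higher and 2.35% lower, 4.20% together. In *sadr1-30.4* over Col-0, 3 of 7 were past 2-fold lower (*FMO1*, *UGT76B1* and *ALD1*), and 0 higher, where 2.23% of all genes were lower and 1.30% higher, 3.52% together. All 7 members lay below Col-0 in *sadr1-30.4*, with a median log2 ratio of -0.97 against 0.00 over all genes. They did so under each of 3 scalings, but a scaling shifts all genes alike. The member nearest to 0, *UGT74F2*, moved only between -0.25 and -0.21. These comparisons share the Col-0 values, so a high or low value in Col-0, of 1 gene or of several together, enters each of them. With 1 pooled value, a Col-0 sample that stood apart cannot be seen, and the state of the wild-type leaves was not tested. The marker gene *PR1*, named after its values were seen, also lay below wild type in the suppressors, at 11969 scaled reads in wild type, 20565 in the *ADR1-L2 DV* line, 6443 in *sadr1-26.6* and 2080 in *sadr1-30.4*. In wild type *PR1* stood at 13270 scaled reads per kb of exon, against 2920 for *DMR6*, the highest member.

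The suppressors were next compared with *ADR1-L2 DV* itself, to see how far each member left the level of the activation mimic. *FMO1* showed the widest gap. Its level in *sadr1-26.6* was 8.10-fold lower than in *ADR1-L2 DV* (log2 ratio -3.02, -3.48 to -2.62), and in *sadr1-30.4* 17.6-fold lower (-4.14, -4.85 to -3.60). *DLO1* was 5.03-fold lower in *sadr1-26.6* and 5.83-fold lower in *sadr1-30.4*. *DMR6* was 2.93-fold lower in *sadr1-26.6* and 4.56-fold lower in *sadr1-30.4*. In *sadr1-26.6* these 3 of 7 members were past 2-fold lower and 0 higher, where 7.85% of all genes were lower and 7.16% higher, 15.0% together. In *sadr1-30.4*, 5 of 7 were past 2-fold lower, these 3 with *ALD1* and *SARD4*, and 0 higher, where 9.67% of all genes were lower and 8.96% higher, 18.6% together. *ALD1* was not lower in *sadr1-26.6* than in *ADR1-L2 DV*, with a log2 ratio of 0.44 (0.27 to 0.62). That ratio was 0.19, outside its interval, when total reads set the scale. *UGT74F2* lay just short of 2-fold in *sadr1-30.4*, at -0.99 (-1.21 to -0.78), and passed it, at -1.23, when total reads set the scale.

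**Figure D3:**
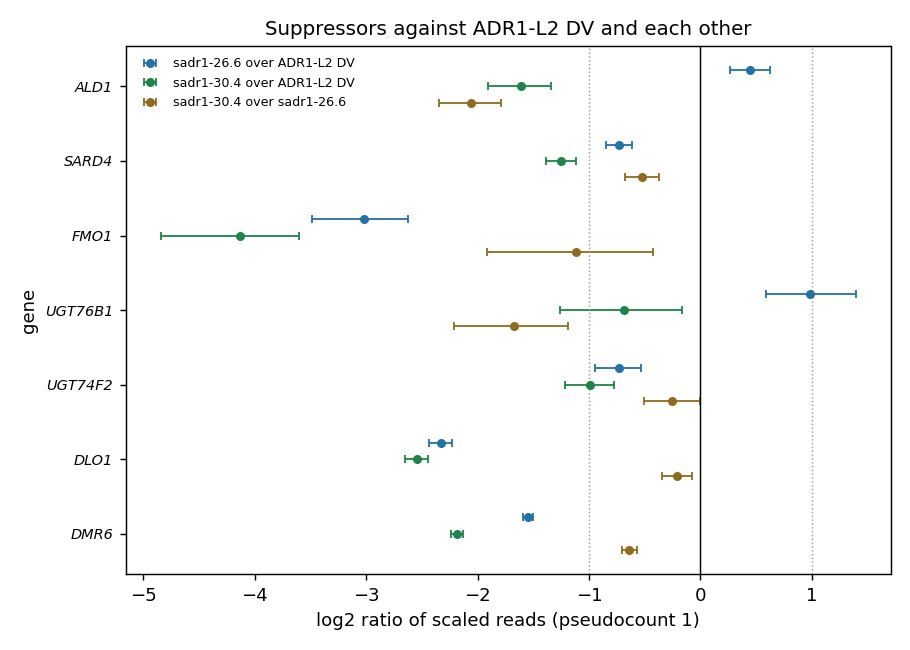
Log2 ratios of scaled reads (horizontal axis) for the 7 members above the read minimum, with *sadr1-26.6* over *ADR1-L2 DV* in blue, *sadr1-30.4* over *ADR1-L2 DV* in green and *sadr1-30.4* over *sadr1-26.6* in brown. Bars are 95% counting intervals; *ALD1* and *UGT76B1* are the genes with blue points right of 0, and all green and brown points lie left of 0.

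Between the suppressors, every one of the 7 members was lower in *sadr1-30.4* than in *sadr1-26.6*. Their median log2 ratio was -0.64, against -0.02 over all genes. The signs held under each of the 3 scalings, but a scaling shifts all genes alike. The member nearest to 0, *DLO1*, moved only between -0.21 and -0.17. The gap was largest for *ALD1*, 4.16-fold (log2 ratio -2.06, -2.35 to -1.79), a gene at 541 reads in *sadr1-26.6* and 135 in *sadr1-30.4*. *UGT76B1* followed at 3.18-fold (-1.67, -2.22 to -1.19) and *FMO1* at 2.17-fold (-1.12, -1.92 to -0.42). These 3 of 7 were past 2-fold lower and 0 higher, where 2.08% of all genes were lower and 1.94% higher, 4.02% together. The smallest gap was that of *DLO1*, at -0.21 (-0.35 to -0.08). The *ADR1-L2* gene, transgene included, was lower in *sadr1-30.4* as well, with a log2 ratio of -0.87 (-0.96 to -0.79), and its part in these differences was not tested.

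Per kilobase of exon, *DMR6* was the highest member in every genotype. In Col-0 it stood at 2920 scaled reads per kb, followed by *DLO1* at 1077, *SARD4* at 903, *ALD1* at 445, *UGT76B1* at 232, *UGT74F2* at 173 and *FMO1* at 151. In *ADR1-L2 DV* the level of *DMR6* was 10577 scaled reads per kb and that of *DLO1* 3845, while *UGT76B1* had become the lowest of these 7 at 42.9. In *sadr1-30.4* the lowest was *FMO1*, at 13.0 scaled reads per kb, below *UGT76B1* at 26.4. *UGT74F1* lay between 2.76 and 6.64 scaled reads per kb across the genotypes. These orders rest on 1 pooled value per genotype, so whether neighbours in them differ beyond the spread between samples is not known.

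Ratios between members of the same genotype do not depend on the scaling. The pairs were not fixed in advance, and *ALD1* to *FMO1* and *DMR6* to *UGT76B1* were computed but are not shown. The ratio of *FMO1* to *UGT76B1* sets reads for the last synthesis step against reads for a conjugating step, not enzyme activities. Per length it was 0.650 (0.555 to 0.760) in Col-0, 5.53 (4.41 to 7.03) in the *ADR1-L2 DV* line, 0.339 (0.241 to 0.471) in *sadr1-26.6* and 0.493 (0.287 to 0.828) in *sadr1-30.4*. Per length, reads of *FMO1* thus outnumbered those of *UGT76B1* in *ADR1-L2 DV* and not in the other genotypes. In *ADR1-L2 DV* over Col-0, *UGT76B1* was 5.35-fold lower and *FMO1* 1.57-fold higher. The other synthesis genes, *ALD1* and *SARD4*, stood above *UGT76B1* per length in every genotype. In Col-0 they had 445 and 903 scaled reads per kb against 232, and in *ADR1-L2 DV* 274 and 1097 against 42.9. The ratio of *UGT74F2* to *UGT76B1* was 0.745 (0.637 to 0.870) in Col-0, 6.88 (5.48 to 8.71) in the *ADR1-L2 DV* line, 2.08 (1.69 to 2.57) in *sadr1-26.6* and 5.61 (4.06 to 7.92) in *sadr1-30.4*, so that *UGT74F2* was the higher glucosyltransferase gene in every transgenic line. The ratio of *DMR6* to *DLO1* was 2.71 (2.55 to 2.88) in Col-0 and 2.75 (2.67 to 2.83) in *ADR1-L2 DV*, with overlapping intervals. It was higher in the suppressors, at 4.73 (4.41 to 5.07) in *sadr1-26.6* and 3.52 (3.27 to 3.80) in *sadr1-30.4*. The ratio of *SARD4* to *ALD1* was 2.03 (1.84 to 2.24) in Col-0, 3.999 (3.62 to 4.42) in the *ADR1-L2 DV* line, 1.77 (1.59 to 1.98) in *sadr1-26.6* and 5.16 (4.27 to 6.26) in *sadr1-30.4*. All these intervals cover counting error only.

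**Figure D4:**
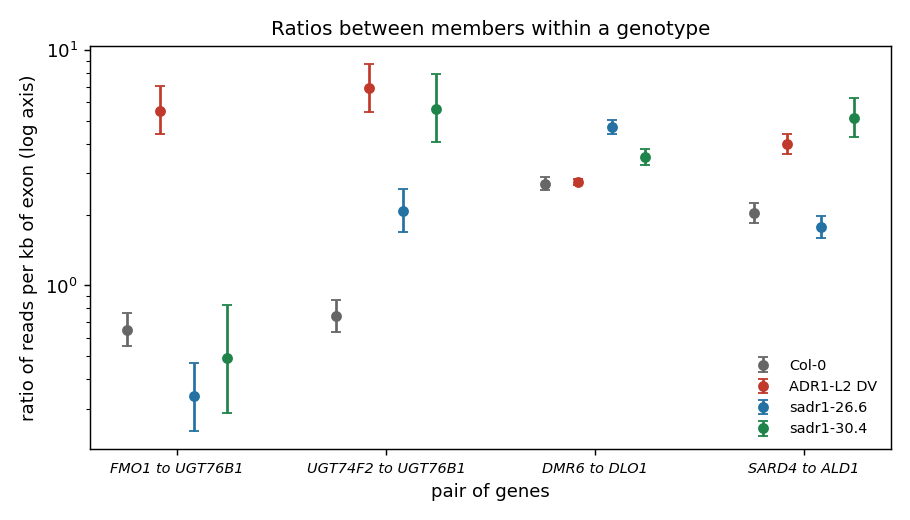
Ratio of reads per kb of exon between pairs of members (vertical axis, logarithmic) in Col-0 (grey), *ADR1-L2 DV* (red), *sadr1-26.6* (blue) and *sadr1-30.4* (green). Bars are 95% counting intervals; the ratio of *FMO1* to *UGT76B1* stands at 5.53 in *ADR1-L2 DV* and below 1 in the other genotypes.

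The other genes of the pathway were taken from a list of 26, of which 23 passed the read minimum. In *ADR1-L2 DV* over Col-0, 9 of the 23 were past 2-fold higher and 2 lower, where 7.38% of all genes were higher and 7.57% lower, so that the lower count is near the share over all genes. The 23 had a median log2 ratio of 0.85 against 0.01 over all genes. The highest ratios were those of *LKR/SDH*, which encodes the enzyme that breaks down lysine, of *GH3.5*, which encodes an enzyme that conjugates amino acids to auxin and salicylic acid, and of *MES9*, a methyl salicylate esterase gene. *LKR/SDH* stood at 73.0 scaled reads in wild type, 2291 in the *ADR1-L2 DV* line, 389 in *sadr1-26.6* and 68.5 in *sadr1-30.4*. *GH3.5* had 39.6 scaled reads in wild type against 533 in *ADR1-L2 DV*, and *MES9* had 32.3 against 394. The genes past 2-fold lower were *ICS2*, the minor isochorismate synthase gene, at 198 and 11.9 scaled reads, and *UGT71C3*, at 14 and 6 reads.

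In *sadr1-30.4* over Col-0, 0 of the 23 genes were past 2-fold higher and 4 lower, where 1.30% of all genes were higher and 2.23% lower. Of the 5 genes listed for salicylic acid synthesis, 3 were among the lower ones. *ICS1*, the main isochorismate synthase gene, was lower by a log2 ratio of -1.12 (-1.22 to -1.01), *EDS5*, the gene of the chloroplast transporter, by -1.31 (-1.47 to -1.15), and *PBS3*, the gene of the enzyme that conjugates isochorismate to glutamate, by -1.24 (-1.38 to -1.11). The other 2, *ICS2* at 0.15 (-0.14 to 0.44) and *EPS1* at -0.26 (-0.63 to 0.11), had intervals that included 0. *UGT76D1*, a glucosyltransferase gene, was the last of the 4, with 11 reads in Col-0 and 3 in *sadr1-30.4*, an interval of -4.36 to 0.04. In *sadr1-26.6* over Col-0, 1 of the 23 was past 2-fold higher, *LKR/SDH* at 2.40 (2.04 to 2.80), and 0 were lower, counts near the 1.85% and 2.35% over all genes.

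Against *ADR1-L2 DV*, 12 of the 23 genes were past 2-fold lower in *sadr1-26.6* and 13 in *sadr1-30.4*, where 7.85% and 9.67% of all genes were lower. With total reads as the scale these counts were 14 and 15, and 2100 and 2447 of all genes were lower, in place of 1416 and 1746. Scaling by the upper quartile gave 11 and 13, with 1398 and 1636 of all genes. A pseudocount of 5 gave 11 and 13 as well, with 1283 and 1639 of all genes. Close to the mark in *sadr1-26.6* were *CBP60A* at -1.003 (-1.12 to -0.89) and *ICS1* at -1.01 (-1.09 to -0.93). *GH3.5*, *MES9* and *LKR/SDH* had the lowest ratios in *sadr1-26.6*, with log2 ratios of -2.95, -2.73 and -2.55. *LKR/SDH*, *UGT76D1* and *MES9* had them in *sadr1-30.4*, at -5.04, -4.14 and -3.53, the value of *UGT76D1* resting on 3 reads against 84 (interval -6.83 to -2.93). *ICS2* was past 2-fold higher in both, at 4.29 and 4.09, and *UGT71C3* in *sadr1-30.4*, on 13 reads against 6, where 7.16% and 8.96% of all genes were higher. Between the suppressors, 2 of the 23 genes were past 2-fold lower in *sadr1-30.4*, *LKR/SDH* at -2.49 (-2.91 to -2.12) and *UGT76D1* at -1.65 (-4.42 to -0.02), and 0 were higher, where 2.08% of all genes were lower and 1.94% higher. The regulator genes *SARD1* and *CBP60G*, whose products bind promoters of defense genes, stood at 1361 and 1820 scaled reads in wild type, 6261 and 7641 in the *ADR1-L2 DV* line, 2157 and 1793 in *sadr1-26.6*, and 1158 and 977 in *sadr1-30.4*. They were highest in *ADR1-L2 DV*, like *FMO1*, *SARD4*, *UGT74F2*, *DLO1* and *DMR6*, and unlike *ALD1* and *UGT76B1*.

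**Figure D5:**
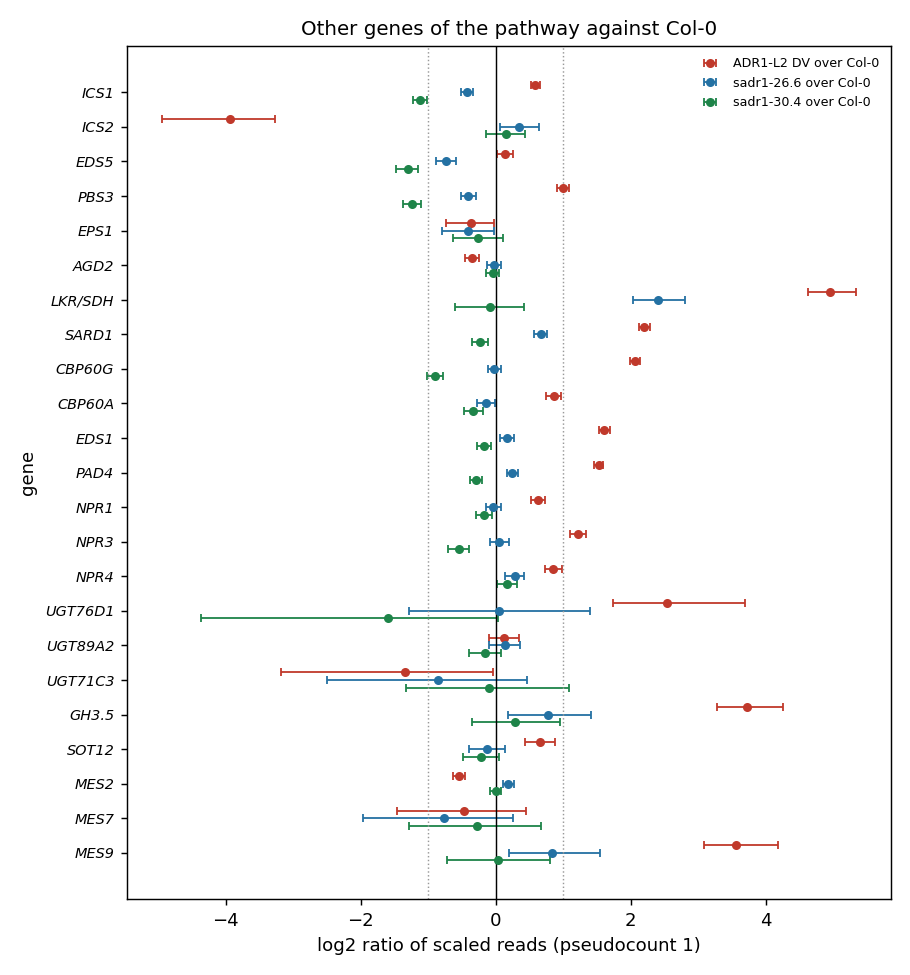
Log2 ratios of scaled reads to Col-0 (horizontal axis) for the 23 other pathway genes above the read minimum, with *ADR1-L2 DV* in red, *sadr1-26.6* in blue and *sadr1-30.4* in green. Bars are 95% counting intervals and dotted lines mark 2-fold; *LKR/SDH*, *GH3.5* and *MES9* lie farthest to the right and *ICS2* farthest to the left in *ADR1-L2 DV*.

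Genes with the most similar pattern were sought for the 3 members of widest range over the 4 genotypes, *FMO1*, *UGT76B1* and *DLO1*. Likeness was the Euclidean distance between centred log2 levels over the 4 pooled values, among 2889 genes with a mean of at least 50 reads and a range of at least 1 on the log2 scale. The nearest to *FMO1* were AT1G44130 (distance 0.73), AT3G46080 (0.85) and *DMP1* (0.96). The nearest to *UGT76B1* were *ABCG40*, a transporter gene, at 0.86, *ARI12* at 1.02 and *PAD3*, the gene of the last step of camalexin synthesis, at 1.20. Unlike *UGT76B1*, all of these had fewer reads in *sadr1-26.6* than in *ADR1-L2 DV*, for *ARI12* 30 against 48 and for *PAD3* 207 against 379. *ABCG40* had 2590 reads in wild type, 591 in the *ADR1-L2 DV* line, 445 in *sadr1-26.6* and 219 in *sadr1-30.4*. The patterns closest to *DLO1* were far closer, with AT3G47380 at 0.13, the receptor-like kinase gene *CRK23* at 0.18 and AT2G04100 at 0.19. *CRK23* had 431 reads in wild type, 1947 in the *ADR1-L2 DV* line, 259 in *sadr1-26.6* and 268 in *sadr1-30.4*. With 4 values per gene these distances describe the patterns and test nothing.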

How the data were processed

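Leaf mRNA of 12 samples, 3 per genotype, was sequenced, and samples were grouped by their titles. The authors deposited 1 table with 4 columns of whole-number counts, 1 per genotype, headed RPKM. It also holds 6 columns of the authors' own fold changes and adjusted p-values of each line against Col-0, which were not used. TAIR10 is the build listed in the submitters' processing notes. Aligner, counter, strand setting and the pooling of samples were not given in the sources used here. With 1 pooled value per genotype, count models such as that of edgeR could not be fitted, and no gene was tested.

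Counts were scaled by the median of ratios over genes above 0 in all 4 genotypes. Log2 ratios used a pseudocount of 1, and 95% Clopper-Pearson intervals were taken on the unscaled counts and shifted by the scaling. The calculation recovered known folds on simulated data, which held counting error only and few changed genes, balanced in direction. That simulation does not cover spread between samples or the scaling of a line with as many differences as *ADR1-L2 DV*. Alternatives were scaling by total reads or by the upper quartile, pseudocounts of 0.5 and 5, thresholds of 1.5-fold and 4-fold, and read minimums of 0 and 50. The members and lists were chosen with earlier results of these data known. The rule for named genes takes all 9 members, *ADR1-L2* and *SADR1*, up to 3 pathway genes per direction and comparison, and 3 genes of like pattern for 3 members. *PR1*, *PDF1*, *ATML1*, *GL1*, *GL2*, *LHCB1.1*, *RBCS1A*, *CA1*, *SEOR1*, *AG*, *DLO2* and pathway genes named beyond the 3 were chosen after their values were seen. Coordinates, exon lengths, upstream windows and coding sequences were read from assembly TAIR10.1 with its RefSeq annotation, which lists 28009 of the 28496 gene codes. No protein sequence table was used, so identity was computed on coding sequences by global alignment. Software was Python 3.11.15, pandas 2.3.3, NumPy 2.4.6, SciPy 1.17.1, Biopython 1.88 and matplotlib 3.10.9.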

Additional observations from a re-analysis of the deposited data

How the results depend on the processing

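No paired analysis was possible because the table holds 1 pooled value per genotype and none per sample, so leaving out replicates, a replicate block and edgeR or DESeq2 fits were not run. Under other scalings and pseudocounts the counts of members and of pathway genes past 2-fold stayed within 1.5 times the values in the report. Of 216 alternative log2 ratios of single members, 14 lay outside their counting interval, and 0 of those past 2-fold changed sign. The 216 include *UGT74F1* and *BSMT1*, whose intervals are wide. Each of the 14 had total reads as the scale, where 40 stayed inside, and *ADR1-L2 DV* in the comparison. With that scale, every ratio of *SARD4*, *UGT74F2*, *DLO1* and *DMR6* that involved *ADR1-L2 DV* lay outside its interval. The remaining ones were those of *ALD1*, at -0.49 in *ADR1-L2 DV* over Col-0 and 0.19 in *sadr1-26.6* over *ADR1-L2 DV*. With a threshold of 1.5-fold, the members past it numbered 6 in *ADR1-L2 DV* over Col-0, 5 in *sadr1-30.4* over Col-0 and 6 in *sadr1-26.6* over *ADR1-L2 DV*, and the pathway genes 17 in *ADR1-L2 DV* over Col-0, 7 in *sadr1-26.6* over Col-0 and 9 in *sadr1-30.4* over *sadr1-26.6*. With 4-fold, the members numbered 1 in *ADR1-L2 DV* over Col-0, 1 in *sadr1-26.6* over Col-0, 3 in *sadr1-30.4* over *ADR1-L2 DV* and 1 in *sadr1-30.4* over *sadr1-26.6*. The pathway genes past 4-fold numbered 7 in *ADR1-L2 DV* over Col-0, 0 in *sadr1-30.4* over Col-0, 6 and 8 in *sadr1-26.6* and *sadr1-30.4* over *ADR1-L2 DV*, and 1 between the suppressors. Fewer or more genes pass by construction. Of the 18048 genes above the read minimum, 5671, 2140 and 1731 were past 1.5-fold in *ADR1-L2 DV*, *sadr1-26.6* and *sadr1-30.4* over Col-0. In *sadr1-26.6* over *ADR1-L2 DV* they numbered 5760, and between the suppressors 2006. Past 4-fold were 711, 115 and 106 in the 3 lines over Col-0. In *sadr1-26.6* and *sadr1-30.4* over *ADR1-L2 DV* they were 614 and 911, and between the suppressors 109. Without the read minimum, 2 pathway genes and 2460 of all genes were past 2-fold in *sadr1-26.6* over Col-0. With a minimum of 50 reads, 1 pathway gene and 283 of all genes were between the suppressors. Depth limits *UGT74F1* and *BSMT1*, for which no difference could be seen.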
